A study of Mus musculus with 2 samples.

Results

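Smooth muscle contractile genes encode the actin and myosin filaments of smooth muscle, the proteins that bind and regulate these filaments, and the cofactor myocardin that switches such genes on. The 10 genes described here were listed by name: Acta2, Actg2, Myh11, Tagln, Cnn1, Smtn, Lmod1, Des, Synpo2 and Myocd. All 10 were found among the 43346 gene rows of the deposited tables. RNA was measured by total RNA-seq in whole lung of mouse embryos of strain B6NCrl on embryonic day 16.5, as 2 biological replicates of a single group. Each library came from pooled male and female embryos, 41 of them for replicate 2, with no number given for replicate 1. No mutant, treated or second-age group was analysed here, so the comparisons are those between genes within a library and between the replicates.

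In smooth muscle, calcium entry activates the kinase that phosphorylates the myosin light chain, and myosin then pulls on actin filaments that are anchored in dense bodies and in plaques at the membrane. Serum response factor binds a short DNA element called the CArG box in front of many of these genes, and myocardin and its relatives act as its partners. In the developing lung, smooth muscle rings form around the branching airways and around the arteries, and alveolar myofibroblasts that appear later also carry alpha smooth muscle actin. Whole lung holds those of these cells that are present at the age sampled, together with the pulmonary vein wall, which contains cardiac muscle in the mouse. In such bulk RNA, fewer cells of a type and less RNA per cell cannot be told apart, and airway cannot be separated from vascular smooth muscle.

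Expression is given as TPM, a transcript abundance in which reads are divided by length and by the size of the library, so levels can be compared between genes. Summed expected counts came to 38852470 for replicate 1 and 27145411 for replicate 2, and spike-in rows took 2.30% and 2.32% of them. Epithelial markers showed both libraries to be lung: Sftpc, the surfactant protein C gene, was at 10883 TPM in replicate 1 and 14172 in replicate 2. Epcam was at 250.02 and 249.35 TPM, Ager at 318.01 and 399.90 TPM, and the lineage factor gene Nkx2-1 at 77.00 and 62.63 TPM, in the same order. The replicates are separate pools of 1 group, and an exact two-sided sign-flip test over 2 values cannot go below p = 0.5. No test was therefore made, and means are given ± SD over n = 2.

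All 10 genes reached 1 TPM in both replicates, against 34.2% of all gene rows and 61.5% of protein coding genes. At 10 TPM the count was 9 of 10, with Lmod1 below it, against 40.3% of protein coding genes. Myocd was just above this cut at 10.69 TPM in replicate 1 and 10.58 in replicate 2, with deposited bounds that began at 8.39 and 7.97 TPM. At 100 TPM the count was 2 of 10, Acta2 and Actg2, against 7.06% of protein coding genes. The median over the 10 genes was 43.92 TPM in replicate 1 and 44.81 in replicate 2 (44.4 ± 0.626 TPM, SD, n = 2), beside a median of 4.88 TPM over 21474 protein coding genes. Their levels covered a 184-fold range. Together they held 1093 TPM in replicate 1 and 1013 in replicate 2, which is 0.109% and 0.101% of all TPM, and Acta2 alone made up 60.1% and 58.3% of that sum.

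**Figure D1:**
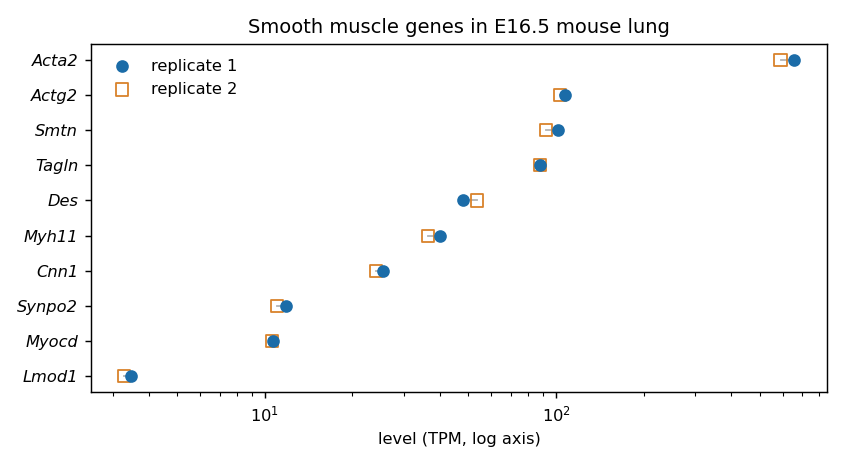
Level of each of the 10 smooth muscle genes in TPM on a log axis, with a filled circle for replicate 1 and an open square for replicate 2. The order of the genes was the same in both replicates, from Acta2 at 656.62 and 590.44 TPM down to Lmod1 at 3.47 and 3.29 TPM.

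Acta2 (ENSMUSG00000035783) encodes alpha smooth muscle actin, the main actin of vascular and airway smooth muscle. It lies on chromosome 19 from 34241090 to 34255590 on the minus strand (build mm10). Its level was 656.62 TPM in replicate 1 and 590.44 in replicate 2, a mean of 624 ± 46.8 TPM (SD, n = 2). Replicate 1 was the higher, by 0.15 on the log2(TPM + 1) scale. These values rest on 28864 and 18402 expected counts, and counting error alone gives the log2 ratio a 95% interval of 0.13 to 0.18. Acta2 stood at place 201 among the gene rows by mean TPM, with 0.806% of protein coding genes above it.

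The deposited credibility bounds of Acta2 ran from 634.8 to 649.7 TPM in replicate 1 and from 564.3 to 580.9 in replicate 2. In both libraries the TPM lay above them. The bounds of the replicates did not overlap.

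Actg2 (ENSMUSG00000059430), on chromosome 6 from 83512905 to 83536265 on the minus strand, encodes gamma smooth muscle actin, best known from gut and bladder. It had 107.55 TPM in replicate 1 and 103.01 in replicate 2 (105 ± 3.21 TPM, SD, n = 2). The replicates were close: the log2 difference was 0.06, and the 95% counting interval of -0.01 to 0.14 included 0. Acta2 exceeded Actg2 by 2.61 and 2.52 on the log2 scale of TPM, a mean of 2.56 ± 0.064 or 5.92-fold. Actg2 was nonetheless the second highest of the 10 genes.

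The actins are close in sequence, and the figures for each depend on reads being assigned to the right copy. Over their coding sequences Actg2 was 84.4% identical to Acta2, the skeletal actin gene Acta1 85.4% and the cardiac actin gene Actc1 82.6%. The longest stretch shared without a mismatch was 29 nt with Actg2, 29 nt with Acta1 and 23 nt with Actc1. The expected counts of Acta2 and Actg2 were whole numbers in both libraries, within 0.005, as they are when no read is divided with another gene. Such counts are common, since 71.4% of the 12732 gene rows with 100 counts or more in both libraries had them. Those of Acta1 were not whole in replicate 2, at 6664.04. The 60 coding bases below, which start 300 bases before the end of the coding sequence, show how differences are scattered through these genes (GENCODE M21 transcripts, mm10, minus strand in each). Capitals mark bases that differ from Acta2.
Acta2, chr19:34243416-34243475: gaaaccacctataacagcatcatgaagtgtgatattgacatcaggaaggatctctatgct
Actg2, chr6:83516367-83516426: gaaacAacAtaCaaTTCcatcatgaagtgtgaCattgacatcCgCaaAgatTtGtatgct
Acta1, chr8:123892328-123892387: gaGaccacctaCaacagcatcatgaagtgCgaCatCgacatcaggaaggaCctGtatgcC
Actc1, chr2:114048222-114048281: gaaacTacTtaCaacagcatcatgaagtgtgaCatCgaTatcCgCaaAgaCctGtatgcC
In this window Actg2 differed from Acta2 at 12 bases, Acta1 at 8 and Actc1 at 12.

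Set against the other actins, the smooth muscle forms were a small part of actin RNA. Of the summed TPM of 6 actin genes, Acta2 held 6.69% in replicate 1 and 6.04% in replicate 2 (6.37 ± 0.459%, SD, n = 2), and Actg2 held 1.10% and 1.05% (1.08 ± 0.0296%). The cytoplasmic genes Actb and Actg1, used by every cell, held 65.8% and 22.2% in replicate 1, and 63.3% and 23.3% in replicate 2. The log2 ratio of Acta2 to Actb was -3.34 ± 0.064, so that Actb was 10.1-fold higher.

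Among the 4 muscle actins alone, Acta2 held 55.7% in replicate 1 and 45% in replicate 2, and Actg2 held 9.13% and 7.85%. Actc1 was at 338.54 and 349.54 TPM, or 28.7% and 26.6%, and Acta2 exceeded it by 0.86 ± 0.14 on the log2 scale. Acta1 differed most between the pools, at 75.78 TPM in replicate 1 and 269.60 in replicate 2, or 6.43% and 20.5%. The log2 ratio of Acta2 to Acta1 was 3.12 in replicate 1 and 1.13 in replicate 2. With a mean of 2.12 ± 1.40 it did not exceed 2 SD, unlike the other 20 of 21 ratios computed.

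**Figure D2:**
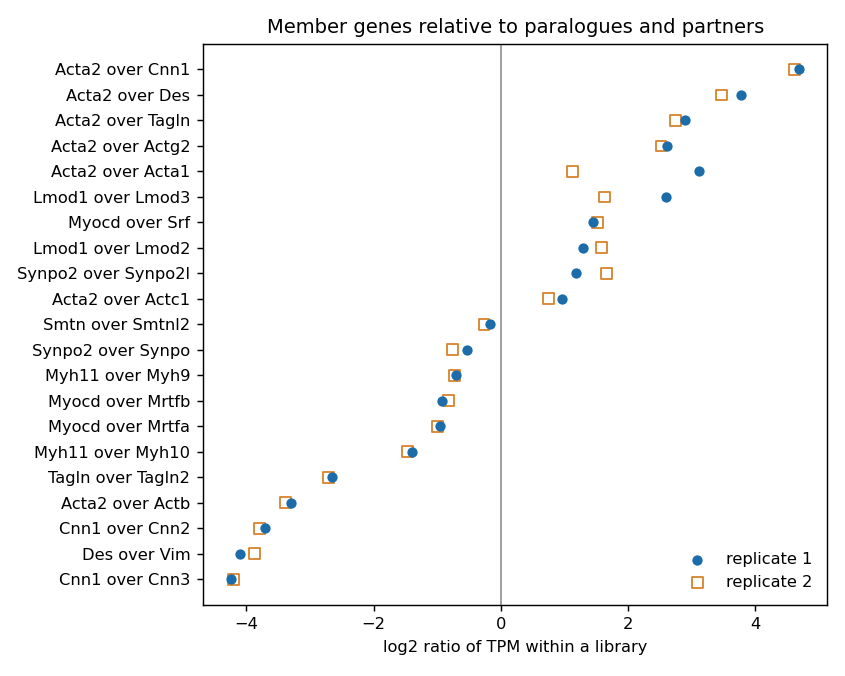
Ratios of TPM within a library on the log2 scale for 21 pairs of a smooth muscle gene and a paralogue or partner, with a filled circle for replicate 1 and an open square for replicate 2. A positive value means that the gene named first was higher. The replicates lie close together in most pairs, and Acta2 over Acta1 has the widest gap, 3.12 against 1.13.

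Myh11 (ENSMUSG00000018830), on chromosome 16 from 14194535 to 14291372 on the minus strand, encodes the smooth muscle myosin heavy chain, which is regarded as the most specific marker of mature smooth muscle. It was at 40.00 TPM in replicate 1 and 36.25 in replicate 2 (38.1 ± 2.65 TPM, SD, n = 2), with 6830 and 4388 expected counts. Replicate 1 was higher by 0.14 on the log2(TPM + 1) scale, and the 95% counting interval of the log2 ratio, 0.09 to 0.20, left out 0. The TPM of replicate 2 lay just above its deposited bounds of 34.11 to 36.18 TPM. Of protein coding genes, 19.1% were higher than Myh11.

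The non-muscle myosins stood above the smooth muscle form. Myh10, the non-muscle heavy chain IIB, was at 104.91 TPM in replicate 1 and 99.83 in replicate 2. Myh11 over Myh10 was -1.43 ± 0.050 on the log2 scale, so Myh10 was 2.69-fold higher. Myh9, the IIA chain, was at 65.26 and 59.98 TPM and 1.64-fold higher than Myh11, with a log2 ratio of -0.72 ± 0.014.

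Smooth muscle myosin is spliced at its tail into the forms SM1 and SM2 and at its head into forms with and without a short insert. The deposited tables hold a single Myh11 transcript, Myh11-201, of 6632 nt, so its share of the gene was fixed at 100% and these forms were not resolved here. GENCODE M21, a more recent release on mm10, adds 2 exons that tell the forms apart. They are shown because reads over them would tell these forms apart. The first, exon 41 of Myh11-202, brings in an early stop codon (capitals). The second, exon 6 of Myh11-204, is a coding insert of 21 nt.
Myh11-202 exon 41 up to its stop codon, chr16:14198058-14198088, minus strand: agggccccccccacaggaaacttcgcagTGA
Myh11-204 exon 6, chr16:14248580-14248600, minus strand: caaggtccatcttttgcctac
Annotated coding lengths were 1972 codons for Myh11-201, 1938 for Myh11-202 and 1979 for Myh11-204.

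Tagln (ENSMUSG00000032085), on chromosome 9 from 45929619 to 45936058 on the minus strand, encodes transgelin or SM22 alpha, an actin-binding protein that appears early in smooth muscle differentiation. It was at 88.11 TPM in replicate 1 and 88.19 in replicate 2 (88.15 ± 0.0566 TPM, SD, n = 2). The replicates were nearly equal, with a log2 difference of -0.0013 and the lowest coefficient of variation of the 10 genes, 0.0642%. That agreement is closer than counting error, since 3424 and 2430 expected counts give the log2 ratio a 95% interval of -0.08 to 0.07. Acta2 exceeded Tagln by 2.82 ± 0.11 on the log2 scale of TPM, or 7.06-fold.

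Tagln2, the paralogue found in many cell types, was at 552.24 TPM in replicate 1 and 576.59 in replicate 2. It was 6.40-fold higher than Tagln, a log2 ratio of Tagln to Tagln2 of -2.68 ± 0.043. The end of Tagln overlaps by 108 nt the gene Pcsk7 on the opposite strand, which was at 17.35 and 15.47 TPM. GENCODE M21 also places Gm48529 on the opposite strand across 3627 nt of Tagln, and it has no row in the deposited data. A strand setting is not given in the sources used here, and the effect of these overlaps was not tested.

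Cnn1 (ENSMUSG00000001349), on chromosome 9 from 22099216 to 22109630 on the plus strand, encodes basic calponin, an actin-binding inhibitor of myosin ATPase and a later marker of smooth muscle. It had 25.43 TPM in replicate 1 and 24.12 in replicate 2 (24.8 ± 0.926 TPM, SD, n = 2), on 1508 and 1014 expected counts. The log2 difference was 0.07, and the 95% counting interval of -0.04 to 0.19 included 0. Both broadly expressed calponins were far higher. Cnn2 was at 331.55 and 333.62 TPM, 13.4-fold above Cnn1 (log2 ratio of Cnn1 to Cnn2 -3.75 ± 0.060). Cnn3 was at 479.40 and 443.67 TPM, 18.6-fold above it (-4.22 ± 0.025). Acta2 exceeded Cnn1 by 4.65 ± 0.054 on the log2 scale, or 25.1-fold.

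Smtn (ENSMUSG00000020439), on chromosome 11 from 3517523 to 3540612 on the minus strand, encodes smoothelin, an actin-associated protein of contractile smooth muscle. Its level was 101.52 TPM in replicate 1 and 92.30 in replicate 2 (96.9 ± 6.52 TPM, SD, n = 2). Replicate 1 was higher by 0.14 on the log2(TPM + 1) scale, and counting error gives the log2 ratio a 95% interval of 0.09 to 0.19. Smtn alone among the 10 genes had counts that were not whole, 7725.20 and 4896.84. Of all gene rows with 100 counts or more in both libraries, 71.4% had whole counts. The annotation places Gm11946 on the opposite strand across 6700 nt of the gene, and that row held 55.80 and 59.16 expected counts. Its paralogue Smtnl2 was at 114.21 and 110.79 TPM, and Smtn over Smtnl2 was -0.22 ± 0.066 on the log2 scale. By expected counts, not divided by length, it was -0.067 ± 0.10 and its sign did not hold.

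Smoothelin is made as a long form, known from vascular smooth muscle, and a short form, known from visceral smooth muscle and started from a promoter inside the gene. The long model Smtn-202, of 921 codons, led the gene with 75.03% of its TPM in replicate 1 and 74.87% in replicate 2 (74.95 ± 0.113%, SD, n = 2). The 4 models of over 900 codons in the tables together held 87.2% and 84.8% (86.0 ± 1.73%). The short model Smtn-201, of 436 codons, held 3.59% and 4.97% (4.28 ± 0.976%), on 156.94 and 140.19 expected counts. The processed transcript Smtn-206, of 625 nt, held 9.03% and 9.66%. The long models were thus far above the short one in both libraries. Their first coding bases come from different exons (GENCODE M21, mm10, minus strand), with the start codon in capitals.
Smtn-202, chr11:3537329-3537373: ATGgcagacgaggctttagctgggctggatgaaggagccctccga
Smtn-201, chr11:3527782-3527826: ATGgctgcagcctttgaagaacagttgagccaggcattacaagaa

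Long smoothelin models also differ in how they end. Smtn-203, of 923 codons, skips exon 20 of Smtn-202 and reads on into another end, and held 8.86% of TPM in replicate 1 and 7.15% in replicate 2. Models that end as Smtn-202 does held 78.3% and 77.6%. The last 45 coding bases of each come from different exons.
Smtn-202, chr11:3520775-3520819: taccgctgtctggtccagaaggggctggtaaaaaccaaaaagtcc
Smtn-203, chr11:3517680-3517724: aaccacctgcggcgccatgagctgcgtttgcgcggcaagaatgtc

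Lmod1 (ENSMUSG00000048096), on chromosome 1 from 135324807 to 135368065 on the plus strand, encodes leiomodin 1, which nucleates actin filaments in smooth muscle. It was the lowest of the 10 genes, at 3.47 TPM in replicate 1 and 3.29 in replicate 2 (3.38 ± 0.127 TPM, SD, n = 2). With 349 and 235 expected counts, the 95% counting interval of the log2 ratio was wide, -0.16 to 0.32, and included 0. Of protein coding genes, 53.6% were higher. Even so it exceeded both striated muscle leiomodins. Lmod2, of cardiac and skeletal muscle, was at 1.41 and 1.10 TPM, a log2 ratio of Lmod1 to Lmod2 of 1.44 ± 0.20. Lmod3 was at 0.57 and 1.06 TPM, a ratio of 2.12 ± 0.69, on no more than 42 counts.

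Des (ENSMUSG00000026208), on chromosome 1 from 75360329 to 75368579 on the plus strand, encodes desmin, the intermediate filament of smooth, cardiac and skeletal muscle. It was at 47.84 TPM in replicate 1 and 53.36 in replicate 2 (50.6 ± 3.90 TPM, SD, n = 2). It was the only one of the 10 genes that was higher in replicate 2 beyond counting error: the log2(TPM + 1) difference was -0.15, and the 95% counting interval of the log2 ratio ran from -0.23 to -0.09. Its coefficient of variation, 7.71%, was the highest of the 10. Vim, the vimentin gene of mesenchyme at large, was at 819.25 and 779.75 TPM, 15.8-fold above Des, with a log2 ratio of Des to Vim of -3.98 ± 0.16. Acta2 was 12.3-fold above Des (3.62 ± 0.22). The coding transcript Des-201 held 96.86% and 95.03% of the gene's TPM, and the retained intron models Des-202 and Des-203 held most of the rest, 3.0% and 4.25% for Des-202.

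Desmin is shared with striated muscle, and genes of skeletal muscle also differed between the pools. Of 10 skeletal muscle genes, 9 reached 1 TPM in both replicates, against 61.5% of protein coding genes. All 9 that averaged 1 TPM or more were higher in replicate 2, with a median log2(TPM + 1) difference of -1.25. The summed level of the 10 was 207 TPM in replicate 1 and 573 in replicate 2. Besides Acta1, the creatine kinase gene Ckm was at 52.00 and 86.56 TPM and the light chain gene Mylpf at 34.86 and 84.28 TPM, whereas the lineage factor gene Myod1 was at 0.55 and 0.89 TPM. Of 10 cardiac muscle genes, all 10 reached 1 TPM, and 7 were higher in replicate 1, against 49.5% of all genes that averaged 1 TPM or more. The sums of the 10 were 1456 and 1218 TPM. The highest were the atrial light chain gene Myl7 at 564.91 and 376.56 TPM, Actc1, and the troponin gene Tnnt2 at 131.94 and 108.90 TPM, and the lowest was the factor gene Nkx2-5 at 2.47 and 1.29 TPM. No marker of either list was at 0. Striated muscle also expresses Des, Synpo2 and Myocd, and its part in the levels of these or the others of the 10 smooth muscle genes was not tested.

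Synpo2 (ENSMUSG00000050315), on chromosome 3 from 123076519 to 123236149 on the minus strand, encodes synaptopodin 2, an actin-bundling protein of the dense bodies and Z-discs of muscle. It had 11.81 TPM in replicate 1 and 11.04 in replicate 2 (11.4 ± 0.544 TPM, SD, n = 2), on 1444 and 946 expected counts. The log2 difference was 0.09, and the 95% counting interval of -0.02 to 0.22 included 0. Synpo, its relative of kidney podocytes and neurons, was at 16.99 and 18.63 TPM, and the log2 ratio of Synpo2 to Synpo was -0.64 ± 0.16. By expected counts, not divided by length, the ratio turned to 0.11. The striated muscle relative Synpo2l was at 5.22 and 3.50 TPM, below Synpo2 by a log2 ratio of 1.42 ± 0.34. GENCODE M21 places Gm43744, Gm43287, Gm43288 and Gm43283 over parts of Synpo2, and none has a row in the deposited data. The effect of these overlaps was not tested.

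Transcripts of Synpo2 were divided, and their shares moved between the replicates. Codon counts are those of GENCODE M21, whose models can differ from the deposited ones, as for Synpo2-201 with 8121 nt in M21 and 4842 nt in the deposited table. Synpo2-201, of 702 codons, led with 37.16% of TPM in replicate 1 and 47.11% in replicate 2. Synpo2-204, a model of 2 exons that overlaps the end of the gene, held 19.86% and 30.74%. The longest form, Synpo2-202 of 1257 codons, held 9.86% and 16.75%. Synpo2-203, of 1198 codons, held 20.85% in replicate 1, on 440.01 expected counts, and was listed at 0 in replicate 2, where a count of 0 allows up to 3 counts or 0.317% of the gene by counting error alone. The deposited posterior mean estimate, which lies above that limit, gave it 15.73% in replicate 1 and 2.87% in replicate 2. Both forms of over 1100 codons together took 45.2% of the gene's counts in replicate 1 and 25.4% in replicate 2 (Wilson 95% intervals 42.7 to 47.8% and 22.7 to 28.2%). Such intervals and limits cover counting error only. Reads shared by overlapping models were divided by the authors' estimator, so a form at 0 beside a near twin is not shown to be absent.

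Myocd (ENSMUSG00000020542), on chromosome 11 from 65176561 to 65269989 on the minus strand, encodes myocardin, the cofactor of serum response factor that drives smooth muscle and cardiac genes. It was at 10.69 TPM in replicate 1 and 10.58 in replicate 2 (10.6 ± 0.0778 TPM, SD, n = 2). The replicates were nearly equal, with a log2 difference of 0.01, although 652 and 420 expected counts give a 95% counting interval of -0.16 to 0.19. With counts scaled between libraries in place of TPM the difference reached 0.15. The deposited bounds within each library were wide, 8.39 to 13.1 TPM in replicate 1 and 7.97 to 13.6 in replicate 2. The broadly expressed myocardin relatives were higher: Mrtfa was at 20.74 and 21.10 TPM and Mrtfb at 20.33 and 18.76 TPM. The log2 ratio of Myocd was -0.98 ± 0.028 to Mrtfa and -0.88 ± 0.071 to Mrtfb. Counts not divided by length gave -1.45 ± 0.047 and -1.80 ± 0.070. Myocd exceeded its DNA-binding partner Srf, at 3.93 and 3.69 TPM, by 1.48 ± 0.054 on the log2 scale of TPM, or 2.79-fold. By expected counts, not divided by length, that excess was 0.65 ± 0.034.

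The Myocd level rests on how reads were split among 6 models. Myocd-205, a processed transcript of 377 nt with no coding sequence, held 41.13% of TPM in replicate 1 and 35.47% in replicate 2, on 31.95 and 19.33 expected counts. Myocd-203, of 5114 nt and 983 codons, held 31.01% and 37.43%, on 434.55 and 367.99 counts. Models that code for over 900 amino acids thus held 42.9% and 37.4% of TPM, but 91.3% and 87.6% of the counts (Wilson 95% intervals 88.8 to 93.2% and 84.1 to 90.4%). Both models of under 700 nt together held 56.9% and 61.7% of TPM on 8.44% and 10.95% of the counts. Taken alone, the models of over 900 codons came to 4.59 TPM in replicate 1 and 3.96 in replicate 2 (4.28 ± 0.445 TPM, SD, n = 2), beside 3.93 and 3.69 TPM for Srf. The excess of Myocd over Srf in TPM therefore rests mostly on the short models.

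Myocardin is known in a longer form of heart and a form of smooth muscle that lacks its first stretch. The model Myocd-201, of 855 codons, which starts at 65218559 where the long models start near 65269989, was listed at 0 in both libraries. A count of 0 allows up to 3 counts, 0.460% of the gene's counts in replicate 1 and 0.714% in replicate 2, by counting error alone. The deposited posterior mean shares of TPM were above those limits, 0.63% and 0.92%. Whether Myocd-201 stands for the smooth muscle form was not tested, so that form is not shown to be absent. The noncoding Myocd-205 lies at 65223734 to 65269854, between the start of the long models and that of Myocd-201. The long models Myocd-203 and Myocd-202 differ by exon 11 of Myocd-203, 144 coding nt that Myocd-202 leaves out. Myocd-202 held 11.87% of TPM on 160.42 counts in replicate 1 and was listed at 0 in replicate 2, where its posterior mean share was 4.11% (11.94% in replicate 1). The exon is shown because it is the sequence on which that split turns (GENCODE M21, mm10).
Myocd-203 exon 11, chr11:65184488-65184631, minus strand: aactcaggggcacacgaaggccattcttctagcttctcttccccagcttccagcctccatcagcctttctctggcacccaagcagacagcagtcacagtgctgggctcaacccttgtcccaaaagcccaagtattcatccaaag

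**Figure D3:**
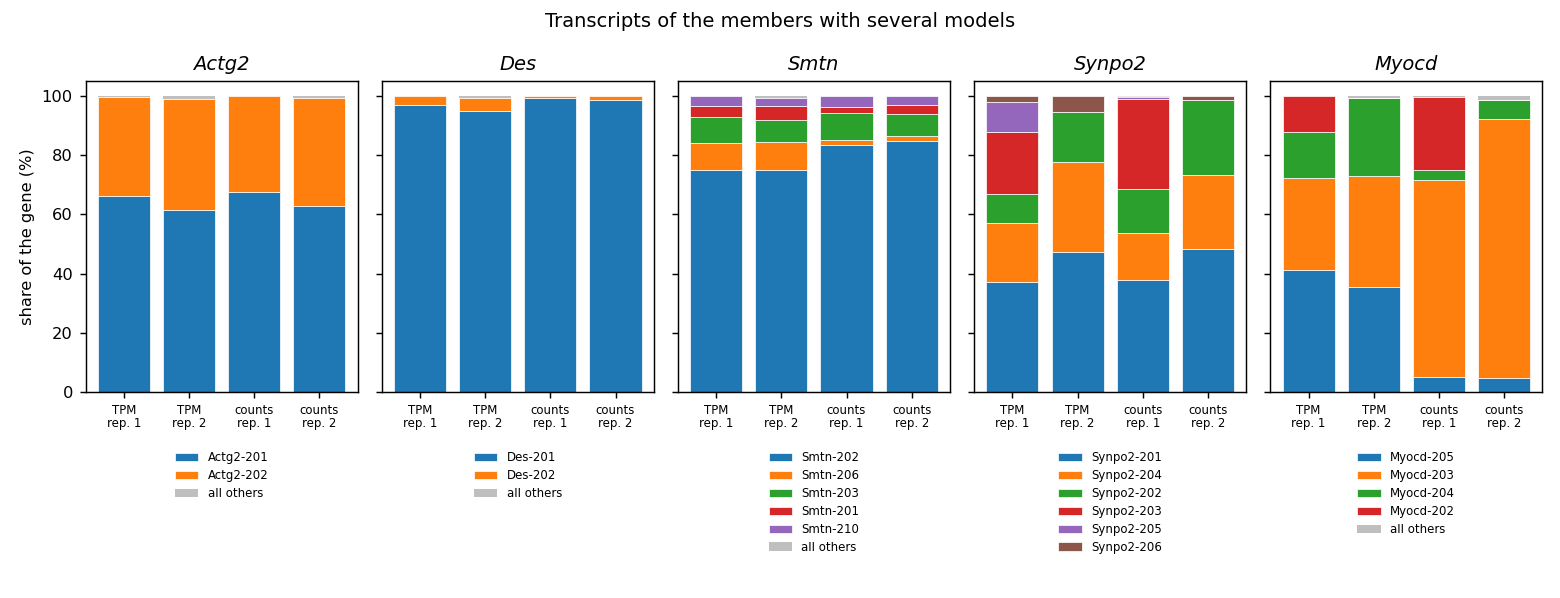
Share of each gene held by its transcripts, in percent, for the 5 smooth muscle genes with several models. In each panel the first and second bars are shares of TPM in replicates 1 and 2, and the others are shares of expected counts in replicates 1 and 2. Short models fill 56.9% and 61.7% of the Myocd bars in TPM and 8.44% and 10.95% in counts.

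Of the 10 genes, 5 had a single transcript in the tables and 5 had several. The same model led in both replicates in 4 of these 5, with Myocd as the exception. Of the 35 models, 6 were at 0 in both libraries and 2 (Synpo2-203 and Myocd-202) had over 100 counts in replicate 1 and 0 in replicate 2, a contrast of the point estimate that the posterior means above narrow. Actg2 had 2 models of the same 376 codons that differ before the coding sequence. Actg2-201 held 66.18% in replicate 1 and 61.42% in replicate 2, and Actg2-202 held 33.56% and 37.47%.

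The CArG box was searched for in promoters because Myocd, Srf and their targets were all measured here. The window was the 300 bases from 250 before to 50 after the RefSeq start (table build GRCm38.p6, the assembly of mm10), and the motif reads the same on both strands. Of the 10 genes, 6 had a promoter in the table, and Myh11, Tagln, Actg2 and Myocd had none. Elements of those genes, and elements outside the window, were not searched. The strict CArG box was found in 0 of the 6, and 1.63% of 32851 promoters held it. With 1 C or G allowed inside the core, Acta2 was the only one of the 6 to match, against 9.98% of all promoters. It matched at 2 places, and 0.822% of all promoters had 2 or more matches. The matches, CCCTATATGG from -84 to -75 and CCTTGTTTGG from -34 to -25 relative to the start, are in capitals.
Acta2 promoter, chr19:34255324-34255623, minus strand: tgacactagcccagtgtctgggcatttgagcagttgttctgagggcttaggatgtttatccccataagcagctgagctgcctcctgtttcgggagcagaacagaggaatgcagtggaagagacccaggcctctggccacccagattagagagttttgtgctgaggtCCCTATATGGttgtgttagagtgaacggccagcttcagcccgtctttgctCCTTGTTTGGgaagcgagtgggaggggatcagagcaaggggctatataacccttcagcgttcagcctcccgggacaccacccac
A match is a string of letters, and binding was not measured. In GENCODE M21 the Acta2 gene begins at 34255590, upstream of the RefSeq start, so both matches lie inside the gene by those coordinates.

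Placed in order by mean TPM, the 10 genes were Acta2, Actg2, Smtn, Tagln, Des, Myh11, Cnn1, Synpo2, Myocd and Lmod1. The log2 ratio of neighbours exceeded 2 SD in 6 of 9 steps, the largest from Acta2 to Actg2 (2.56 ± 0.064) and from Myocd to Lmod1 (1.65 ± 0.044). It did not for Smtn over Tagln (0.14 ± 0.098), Des over Myh11 (0.41 ± 0.21) and Synpo2 over Myocd (0.10 ± 0.058). The step from Myocd to Lmod1 rests mostly on the short Myocd models. Myocd models of over 900 codons alone came to 4.59 TPM in replicate 1 and 3.96 in replicate 2, beside 3.47 and 3.29 for Lmod1. By expected counts, not divided by length, Smtn and the long Myh11 moved up to places 2 and 3, behind Acta2, and 5 of 10 genes kept their place.

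Of 22 paralogues of the 10 genes, 19 reached 1 TPM in both replicates, against 61.5% of protein coding genes. The median of the 22 was 47.5 ± 1.72 TPM. Actb, at 6458 TPM in replicate 1 and 6182 in replicate 2, Actg1, at 2176 and 2278 TPM, and Vim were the highest, and Gfap, the glial intermediate filament gene, was the lowest at 0.15 and 0.53 TPM. Partner genes of contraction were all detected. The list of contraction regulators had 14 of 14 members at 1 TPM or more in both replicates and a median of 119.95 TPM in replicate 1 and 126.20 in replicate 2 (123 ± 4.42 TPM, SD, n = 2). Its highest genes were the essential light chain gene Myl6 at 1179 and 1262 TPM, the tropomyosin gene Tpm1 at 654.70 and 633.56 TPM and the GTPase gene Rhoa at 465.32 and 442.70 TPM. They are also used by cells other than muscle. The lowest was Prkg1, the kinase that relays nitric oxide signals to relaxation, at 5.97 and 5.04 TPM.

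Genes of the dense plaque, where actin filaments meet the membrane, were likewise all at 1 TPM or more (15 of 15), against 61.5% of protein coding genes. The median of the 15 was 58.3 ± 1.48 TPM. The integrin-linked kinase gene Ilk was at 372.43 TPM in replicate 1 and 372.93 in replicate 2, the integrin gene Itgb1 at 322.04 and 311.94 TPM and the filamin gene Flna at 310.85 and 312.88 TPM. Pgm5, whose product aciculin sits in muscle adhesion sites, was the lowest at 2.42 and 2.04 TPM.

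Transcription regulators reached 1 TPM in 10 of 10 cases, against 61.5% of protein coding genes, with a median of 20.2 ± 0.428 TPM. They were led by the LIM protein gene Csrp1 at 224.88 TPM in replicate 1 and 242.73 in replicate 2, the lung mesenchyme factor gene Foxf1 at 115.86 and 105.81 TPM and the LIM protein gene Csrp2 at 108.44 and 108.61 TPM. Srf was the lowest of this list.

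Genes of ion handling and receptors had a median near that of protein coding genes at large, 4.27 ± 0.127 TPM beside 4.88 TPM. Of 13, 11 reached 1 TPM in both replicates, against 61.5% of protein coding genes, and 2 reached 10 TPM, against 40.3%. Those 2 were the endothelin receptor gene Ednra at 95.21 TPM in replicate 1 and 91.19 in replicate 2, and the calcium pump gene Atp2a2 at 27.74 and 28.03 TPM. Next came the membrane calcium pump gene Atp2b4 at 6.39 and 7.52 TPM. The muscarinic receptor gene Chrm3, which mediates airway contraction in the adult, was the lowest at 0.15 and 0.55 TPM on 15 counts in each.

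Markers of neighbouring cell types were read beside these levels. Of 11 pericyte and vascular mural genes, all 11 reached 1 TPM, against 61.5% of protein coding genes, and none was at 0. The sums of the 11 were 468 TPM in replicate 1 and 475 in replicate 2. Ndufa4l2 was the highest at 119.81 and 129.25 TPM, followed by Cox4i2 at 87.31 and 83.36 TPM and Mcam at 81.96 and 86.14 TPM, with Abcc9 lowest at 4.69 and 4.55 TPM. On the airway and myofibroblast side, 3 of 3 genes were measured above 1 TPM, with sums of 134 and 133 TPM. The hedgehog antagonist gene Hhip was at 84.31 and 83.23 TPM, Pdgfra at 41.50 and 41.83 TPM and Lgr6, a marker of airway smooth muscle in the mouse, at 7.70 and 8.23 TPM. How the smooth muscle RNA divides between airway and vessel was not tested.

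Defining markers of stomach mesenchyme, which gives rise to visceral smooth muscle, were near 0 in both libraries. Barx1 was at 0.35 TPM in replicate 1 and 0.12 in replicate 2, Nkx2-3 at 0.04 and 0.03 TPM, and Nkx3-2 was listed at 0 in replicate 1 and at 0.03 TPM in replicate 2. Mesothelial genes, from the covering of the lung, reached 1 TPM in 3 of 3 cases, against 61.5% of protein coding genes, with sums of 64.3 and 85.8 TPM. Each was higher in replicate 2, whereas 49.5% of all genes that averaged 1 TPM or more were higher in replicate 1. Upk3b was at 34.14 TPM in replicate 1 and 40.54 in replicate 2, Msln at 25.77 and 39.96 TPM and Wt1 at 4.39 and 5.30 TPM. Their part in the levels of the smooth muscle genes was not tested.

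**Figure D4:**
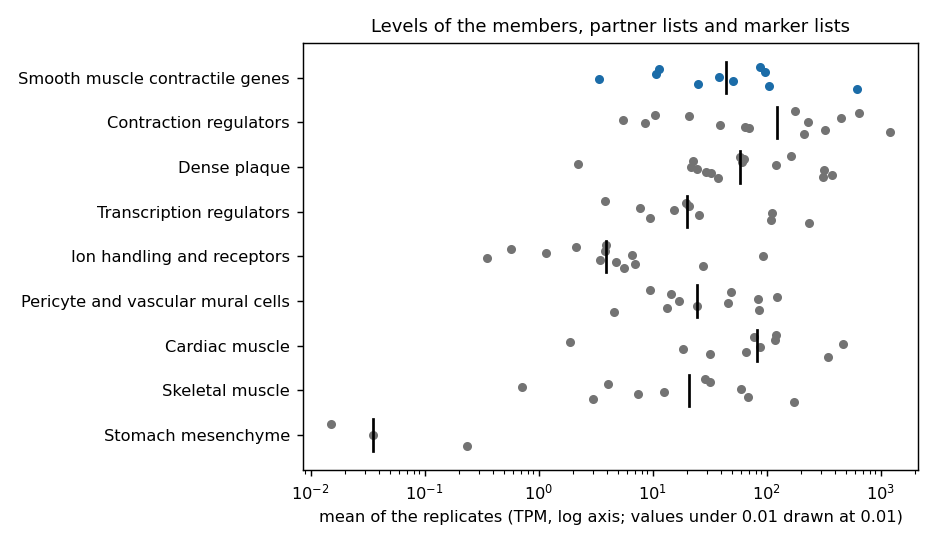
Mean TPM over the replicates, on a log axis, for the 10 smooth muscle genes (top row) and for the genes of 8 partner and marker lists, with a vertical bar at the median of the plotted means. Of the lists drawn, contraction regulators lie highest by median, and stomach mesenchyme genes lie under 1 TPM.

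Between the replicates the 10 genes moved little. Taken as replicate 1 minus replicate 2 in log2(TPM + 1), their differences ran from -0.15 for Des to 0.15 for Acta2 with a median of 0.07, against a median of -0.0015 over the 15493 genes that averaged 1 TPM or more. Replicate 1 was higher in 8 of 10, where 49.5% of those genes were. The exceptions were Des and Tagln. None of the 10 was past 1.2-fold in either direction (0 of 10), against 18.6% of all genes compared, and 5.69% were past it with replicate 1 higher. At 1.5-fold and 2-fold the count was again 0 of 10, against 6.03% and 2.67%. The design named 1.5-fold and 2-fold, and 1.2-fold was a further cut. These shares cover genes of all levels from 1 TPM and are not matched to the levels of the 10.

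Over all genes the spread narrowed with level. Differences had an SD of 0.53 among the 6238 genes between 1 and 10 TPM, where Lmod1 lay. The SD was 0.24 among the 7597 genes between 10 and 100 TPM, where 7 of the 10 smooth muscle genes lay, and 0.15 among the 1556 genes between 100 and 1000 TPM, with Acta2 and Actg2. The 95% counting interval of the log2 ratio left out 0 for 4 of the 10 genes, against 40.4% of all genes compared, a share near the background. They were Acta2, Smtn and Myh11, higher in replicate 1, and Des, higher in replicate 2. Among contraction regulators 10 of 14 were higher in replicate 1, and among dense plaque genes 12 of 15 were, against 49.5% of all genes compared. In both lists 0 were past 1.5-fold, against 6.03% of all genes compared.

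**Figure D5:**
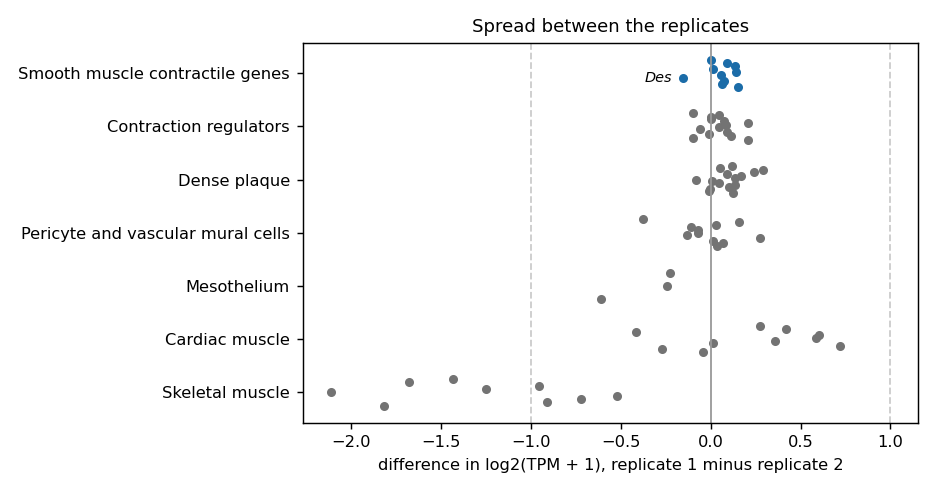
Difference between the replicates in log2(TPM + 1), replicate 1 minus replicate 2, for each gene that averaged 1 TPM or more in 7 lists. Dashed lines mark a difference of 1 in either direction, and points are spread vertically only to separate them. The smooth muscle genes lie between -0.15 and 0.15, while skeletal muscle genes all lie below 0 with a median of -1.25.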

How the data were processed

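Total RNA-seq libraries of whole lung were compared as 2 replicates of 1 group. Per the labels' protocols, 10 ng of RNA over 200 nt, extracted with a mirVana kit, entered each library. The authors deposited tables of genes and transcripts, quantified on mm10 with GENCODE M4 per the deposited notes. The aligner, the quantifier and the strand setting are not given in the sources used here, although the column layout is that of RSEM. The deposited expected counts are estimates that divide a read among the features it matches. The deposited TPM values divide by effective length and sum to the same total in each library with spike-ins included, and the deposited FPKM values divide by length and assigned reads. The score columns the authors deposited are credibility bounds within a library, and the percent columns the authors deposited give a transcript's share of its gene's TPM.

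Symbols, coordinates and coding lengths came from GENCODE M21 on mm10, matched by identifier for 42462 of 43346 gene rows. All 118 places on the 12 partner and marker lists were matched. The text names the 3 highest and the lowest gene of each list, any at 0 and any paired with one of the 10 genes in a ratio. The 10 genes and the lists were chosen with earlier results of these data known. Levels are the mean ± SD of 2 replicates. Differences between replicates used log2(TPM + 1) over genes that averaged 1 TPM or more, with counting intervals from Poisson error at 95%. A ratio was taken to hold its sign when both replicates shared it and the mean exceeded 2 SD. P-values were not computed, and the spread between these pools may be in part technical. Alternatives were the posterior mean, FPKM, rescaled TPM, other pseudocounts and filters, counts in place of TPM, and scaling by edgeR 4.0.16, DESeq2 1.42.0 (R 4.3.3, expected counts rounded to whole numbers) or spike-ins. The scaling step was tested on simulated data. Other steps used Python 3.11.15, NumPy 2.4.6, pandas 2.3.3, SciPy 1.17.1, Biopython 1.88 and matplotlib 3.10.9.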

Additional observations from a re-analysis of the deposited data

How the results depend on the processing

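The median of 44.4 TPM over the 10 genes became 43.3 TPM with the posterior mean, 30.1 in FPKM, 46.7 without spike-ins in the total and 52.3 without spike-ins, globin, mitochondrial and signal recognition particle genes. With each replicate left out in turn it ran from 43.9 to 44.8. The sum of 1053 TPM became 713 in FPKM and 1241 without the abundant genes, and ran from 1013 to 1093 likewise. By counts not divided by length, 5 of 10 genes kept their place in the order and the log2 ratio of Synpo2 to Synpo reversed to 0.11. The sign of Smtn over Smtnl2 no longer held (-0.067 ± 0.10), so that 18 of 21 ratios held in place of 20. Genes past 2-fold between the replicates numbered 413, against 659 and 703 with pseudocounts of 0.1 and 0.01 TPM, 73 at a mean of 10 TPM or more, 173 with TMM, 171 with DESeq2 size factors and 175 with spike-in scaling. In each of these settings 0 of the smooth muscle genes passed 1.2-fold, over 9 genes at a mean of 10 TPM or more, which leaves out Lmod1, and over 10 otherwise. Des stayed lower in replicate 1, at -0.16 to -0.12 over 9 settings, and Tagln changed sign, at -0.0078 to 0.016. Both replicates had the same leading transcript in 5 of 5 genes under the posterior mean, coding models alone or counts, the last chosen after seeing the data. For Myocd the leader differed between these settings. It was the noncoding Myocd-205 under the posterior mean, and Myocd-203 under coding models alone and under counts. Of the other values recomputed, 303 stayed within a set limit and 79 moved further. The limit was the spread between replicates or, for counts, 1.5 times. A gene's own difference between the replicates has no such spread. It was judged instead by the margin of its counting interval, from 0.03 for Acta2 to 0.24 for Lmod1 on the log2 scale. The 303 include values taken with a replicate left out. Those had to stay within the spread, because a single replicate always lies closer to the mean of both than their SD. They therefore say nothing about stability. Nor do changes of filter say anything about a gene's own difference between the replicates, which they cannot move. Such changes are among the 9 settings given for Des and Tagln. No paired analysis was possible because there is a single group. Depth limits the low genes most: Lmod1 rests on 349 and 235 counts.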
